A study of Homo sapiens with 6 samples.

Results

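The genes described here build and run the DNA replication fork, from the proteins that license origins to those that copy, join and repackage the DNA. They are 53 genes, chosen by name from textbook roles, and all of their probes on the array were taken. These were 79 probes, of which 75 gave a signal on enough arrays to be tested, so that all 53 genes were measured, among 12134 genes measured in all. Transcripts were measured with 6 arrays (Illumina HumanHT-12 v4) in HEK-293, an established human embryonic kidney line that carries adenoviral E1A, a protein that binds RB and thereby frees E2F factors. The circANRIL group held 3 arrays of cells stably overexpressing circular ANRIL, a circularized non-coding RNA from the INK4 locus, and the vector control group held 3 arrays of cells with the empty pBI-CMV2 vector. That vector also expresses a green fluorescent protein, and stable lines of either group were made by co-transfection with a neomycin resistance vector and selection with G418. No other treatment or time is given, and several stable lines were made per group. The labels do not tie an array to a line by name, so a p-value here reflects the spread between arrays, and how much of that spread is between lines was not tested.

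Each value is a normalized log2 intensity of a probe, background-corrected and quantile-normalized, and a fold change is the circANRIL mean minus the vector control mean on that log2 scale. Only probes detected (detection p under 0.05) by 3 or more arrays were tested, and "passed" means an adjusted p under 0.05 from limma with Benjamini-Hochberg adjustment over all 21191 tested probes. Of these probes 17.7% passed. The share of probes detected ranged from 43.4% to 46.8% per array. Of 8 measured genes typical of this line 6 were detected on all 6 arrays, among them VIM, NEFM and CDH2, whereas PAX2 was detected on none. Of 11 measured markers of blood, endothelium, liver, fibroblasts and muscle 6 were detected on none. ALB and COL1A1 were detected on all 6 arrays and APOA1 on 5. The highest level of any of the 11 markers was 5.50, for COL1A1. In bulk RNA, a share of cells in S phase and an amount of transcript per cell cannot be told apart.

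As background, a cell licenses its origins before S phase, when the origin recognition complex, CDC6 and CDT1 load the ring-shaped MCM2 to MCM7 helicase onto DNA. Kinases then start the helicase by adding CDC45 and the GINS complex, and polymerases, a sliding clamp and the single-strand binding protein RPA follow behind it. Most of these genes are transcribed under E2F control at the G1/S border, and the subunits of a complex are usually made together.

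The promoters of 4 MCM genes are printed because the subunits of this 1 ring did not move together in the values below. Promoters were taken from RefSeq (GRCh38.p14), from 250 bases before to 50 bases after each gene's start, and 47 of the 53 genes had one. An E2F site was searched as TTTCCCGC, TTTCGCGC, TTTGCCGC or TTTGGCGC on both strands, and capitals mark each match, overlapping matches on the opposite strands being merged.
MCM2, chr3:127598161-127598460, plus strand: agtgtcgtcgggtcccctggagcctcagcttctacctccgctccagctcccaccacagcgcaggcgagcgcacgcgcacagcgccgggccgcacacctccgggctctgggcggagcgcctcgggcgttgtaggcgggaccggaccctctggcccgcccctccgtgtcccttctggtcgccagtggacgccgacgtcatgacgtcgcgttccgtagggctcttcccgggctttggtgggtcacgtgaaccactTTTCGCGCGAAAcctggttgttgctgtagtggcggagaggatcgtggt
MCM3, chr6:52284693-52284992, minus strand: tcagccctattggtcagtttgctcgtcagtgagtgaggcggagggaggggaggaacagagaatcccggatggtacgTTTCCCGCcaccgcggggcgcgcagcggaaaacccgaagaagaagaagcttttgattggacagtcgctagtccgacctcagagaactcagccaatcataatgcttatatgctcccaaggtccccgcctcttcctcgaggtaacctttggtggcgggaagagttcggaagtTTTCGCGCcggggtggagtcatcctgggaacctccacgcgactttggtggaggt
MCM6, chr2:135876394-135876693, minus strand: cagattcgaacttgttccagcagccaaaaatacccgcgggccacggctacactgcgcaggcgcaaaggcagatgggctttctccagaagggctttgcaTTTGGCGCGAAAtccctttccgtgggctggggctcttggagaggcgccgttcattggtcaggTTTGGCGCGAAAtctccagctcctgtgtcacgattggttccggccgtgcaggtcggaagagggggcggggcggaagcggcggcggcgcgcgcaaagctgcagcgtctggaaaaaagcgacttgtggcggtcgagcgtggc
MCM7, chr7:100101348-100101647, minus strand: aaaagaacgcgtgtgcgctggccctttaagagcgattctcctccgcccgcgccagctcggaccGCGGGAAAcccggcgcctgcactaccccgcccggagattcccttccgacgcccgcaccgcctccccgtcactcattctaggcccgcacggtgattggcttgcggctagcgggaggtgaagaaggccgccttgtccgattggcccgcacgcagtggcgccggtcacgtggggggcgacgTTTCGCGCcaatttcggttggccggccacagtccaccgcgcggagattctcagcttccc
In MCM2 and MCM6 matches on opposite strands overlap and run together, at 1 place in MCM2 and at 2 in MCM6. MCM3 and MCM7 hold 2 matches each, which do not overlap. Any E2F match, single or overlapping, was present in 21 of the 47 promoters (44.7%), against 3.33% of 27305 promoters of the same length. The CCAAT box, searched as CCAAT on both strands, was present in 27 (57.4%) against 35.7% of all, and the CHR element, searched as TTTGAA or TTCGAA, in 3 (6.38%) against 16.6%. A match is a string of letters and not a measured binding site.

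Across the whole machinery the differences were small and went both ways. Of the 53 genes, each by its brightest tested probe, 4 rose in the circANRIL lines (ORC5, MCM6, MCM10 and RPA3), 3 fell (MCM2, RPA1 and FEN1) and 46 did not pass. Over all 12134 genes 20.7% passed, 11.4% higher and 9.26% lower, and 13.2% of the replication genes did. No replication gene reached 2-fold, whereas 5.8% of all genes passed and did so. The 7 that passed changed by 1.38-fold to 1.48-fold. The median log2 fold change was −0.07, between quartiles of −0.30 and 0.12, beside −0.02 for all genes, between −0.28 and 0.27. In 32 of the 53 genes the value was below 0, as in 6279 of the 12134. The groups did not overlap in 26 of the 53 genes (49.1%), beside 39.3% of all genes, and 22 (41.5%) had an unadjusted p under 0.05, beside 35.4% of all genes. By the brightest probe, the 95% interval of each of the 53 fold changes lay within 2-fold in either direction. The intervals of 7 dimmer probes, of FEN1, ORC5, POLD2, RFC3, RPA1 and UHRF1, reached beyond it.

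**Figure D1:**
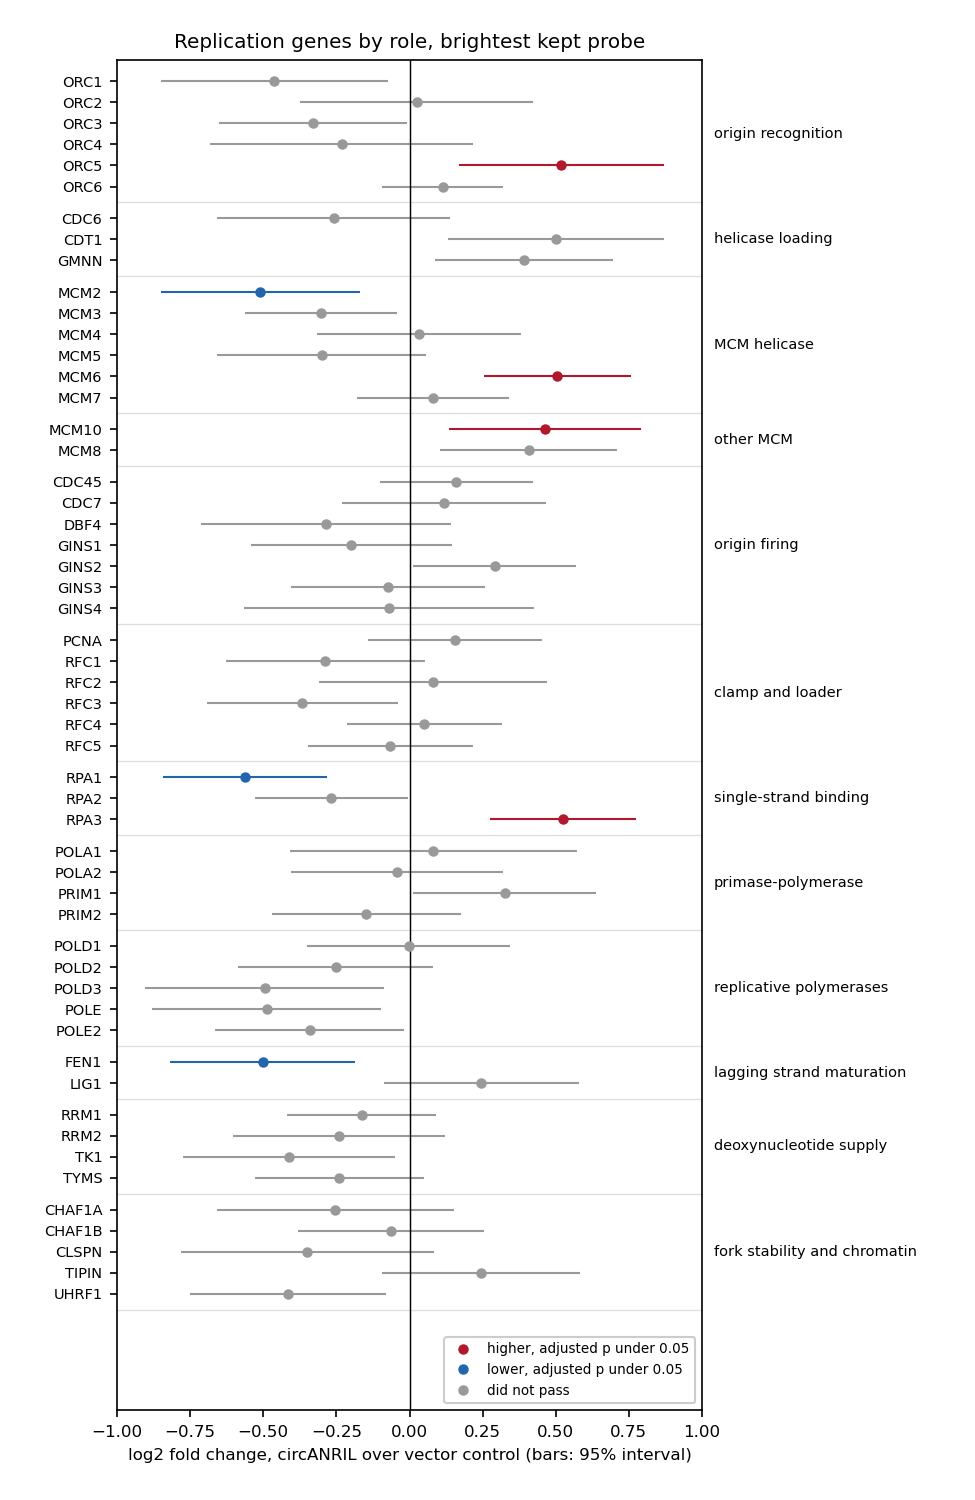
Log2 fold change of each of the 53 replication genes (circANRIL over vector control, brightest tested probe), ordered by role, with bars for the 95% interval from limma. The 4 genes that rose (ORC5, MCM6, MCM10, RPA3) and the 3 that fell (MCM2, RPA1, FEN1) lie between 0.46 and 0.52 above and 0.50 and 0.56 below 0, and all bars stay within 1 log2 unit.

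The scale of these counts depends on the arrays and on the normalization. Without circANRIL array 2 only RPA3 passed, and without circANRIL array 3 only RPA1, MCM6 and RPA3 did. Over all tested probes 2138 and 2192 passed in these fits, beside 3753 in the main fit. With arrays scaled to a common median in place of quantile normalization, the median of all genes shifted from −0.02 to −0.14. Of the replication genes 13 passed as lower and 0 as higher (limma, with 2 higher and 19 lower at an unadjusted p under 0.05). The calls over all probes also moved to lower, with 1418 higher and 2974 lower. That was 32.3% higher, beside 52.4% of the calls in the main fit. Measured from that shift, RPA3 was at 0.47 and MCM6 at 0.47, and RPA1 was at −0.61.

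The smallest adjusted p of the 53 genes belonged to a subunit of RPA, the trimer that coats unwound single-stranded DNA and without which no fork can run. RPA1, its large DNA-binding subunit, fell, while RPA3, its smallest subunit, rose. RPA3 was at 11.44, 11.40 and 11.34 on circANRIL arrays 1, 2 and 3 and at 10.85, 10.91 and 10.84 on vector control arrays 1, 2 and 3. All circANRIL arrays lay above all vector control arrays, and the gap was far wider than the spread within either group. The log2 fold change of RPA3 was 0.52 (standard error 0.12, adjusted p = 0.00599), a 1.44-fold rise.

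RPA1 was at 10.71, 10.44 and 10.47 on the circANRIL arrays and at 11.22, 11.12 and 10.96 on the vector control arrays by its brightest probe. Here every circANRIL array was below every vector control array. By the fit RPA1 changed by −0.56 on the log2 scale (standard error 0.13, adjusted p = 0.0081), and the other RPA1 probes gave −0.73 (adjusted p = 0.0148) and −0.86 (adjusted p = 0.0148), so that all 3 passed in the same direction. RPA2, the middle subunit, was at 11.03, 11.03 and 10.98 against 11.39, 11.34 and 11.12. Its groups did not overlap either, but its difference of −0.27 on the log2 scale (standard error 0.12) did not pass (adjusted p = 0.149). The difference between the changes of RPA3 and RPA1, taken within each array, was 1.09 on the log2 scale. The pair was chosen because its genes passed in opposite directions, so this is a description with no test. RPA3 passed under every alternative run other than median scaling (adjusted p = 0.0835), and RPA1 under all but the methods' t-test (adjusted p = 0.0927) and the fit without circANRIL array 2 (adjusted p = 0.0514).

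The MCM2 to MCM7 helicase, whose 6 subunits form 1 ring, also moved unevenly. MCM6 rose, MCM2 fell, and MCM3, MCM4, MCM5 and MCM7 did not pass by their brightest probes. MCM6 was at 11.76, 11.95 and 11.85 on the circANRIL arrays and at 11.23, 11.47 and 11.35 on the vector control arrays. The lowest circANRIL array stood above the highest vector control array. Its log2 fold change was 0.51 (standard error 0.12, adjusted p = 0.00784), and it did not pass with median scaling (adjusted p = 0.0664), by the methods' t-test (adjusted p = 0.0794) or without circANRIL array 2 (adjusted p = 0.0536). MCM2, a subunit that also carries histones at the fork, was at 10.25, 9.94 and 9.73 against 10.71, 10.46 and 10.29. The groups did not overlap, yet the highest circANRIL array, 1, lay close below the lowest vector control array, 3. MCM2 fell by 0.51 on the log2 scale (standard error 0.16, adjusted p = 0.0373). Its adjusted p was 0.164 without circANRIL array 3, 0.12 without circANRIL array 2, 0.129 without vector control array 1 and 0.0642 without vector control array 2. The MCM2 call was also lost with a floored background, no filter, no intensity trend or the methods' t-test. MCM2 thus passed in 8 of the 16 alternatives. Within arrays, the difference between the changes of MCM6 and MCM2 was 1.02, again a description of a pair chosen for its opposite calls.

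The other subunits filled the range between these values. MCM3 was at 11.86, 11.69 and 11.65 against 11.84, 12.20 and 12.06 by its brightest probe, where circANRIL array 1 overlapped the vector control arrays. This probe gave −0.30 (adjusted p = 0.1), but the dimmer MCM3 probe fell by 0.54 on the log2 scale (standard error 0.15, adjusted p = 0.0229). MCM5 was at 8.87, 8.53 and 8.51 against 9.11, 8.76 and 8.94, with overlapping groups and a log2 fold change of −0.30 (adjusted p = 0.239). MCM4 was at 10.21, 10.34 and 10.28 on the circANRIL arrays, inside the vector control range of 9.87, 10.29 and 10.58. Its log2 fold change was 0.03 by this probe and −0.49 by a second probe (adjusted p = 0.0545), which is annotated to another transcript. MCM7 was at 12.00, 12.13 and 11.87 against 11.72, 12.04 and 12.00, with overlapping groups and a log2 fold change of 0.08 (95% interval −0.18 to 0.34, adjusted p = 0.704). Of the promoters shown above, MCM2 and MCM6 both hold such overlapping E2F matches. The 21 genes with an E2F match held 1 gene that rose, 1 that fell and a median log2 fold change of −0.20. The 26 without held 2 that rose, 2 that fell and a median of −0.06. RPA3, which rose, is in neither group, since it had no promoter here, nor had RPA2, MCM4, MCM5, GINS4 and POLD3.

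**Figure D2:**
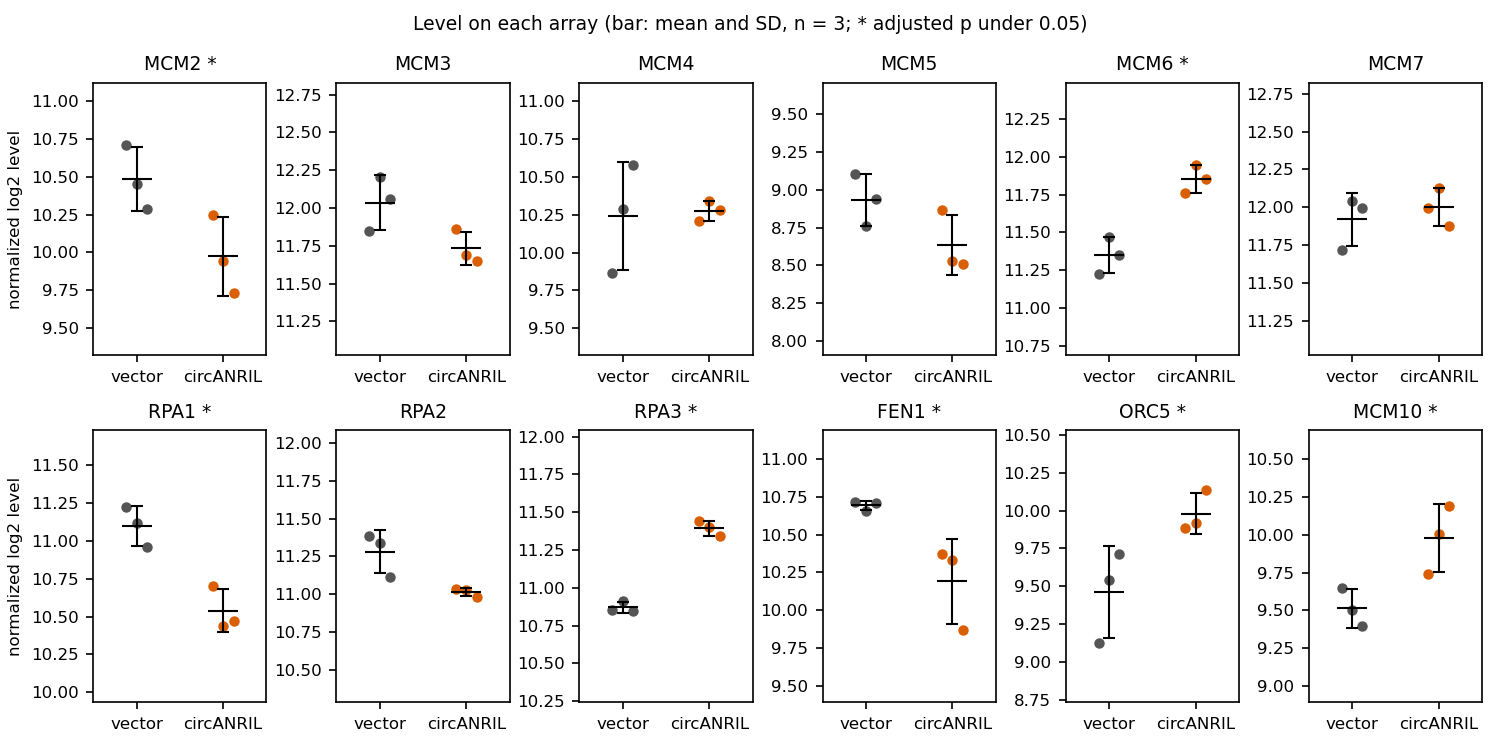
Normalized log2 level of 12 replication genes on each array (points), with group mean and SD (n = 3), vector control in grey and circANRIL in orange. All panels span the same 1.8 log2 units, and RPA3 and MCM6 lie wholly above and RPA1, MCM2 and FEN1 wholly below their vector control arrays, whereas MCM4 and MCM7 overlap.

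At the origin itself, ORC5 was the subunit of the origin recognition complex that passed. This complex, whose 6 subunits are annotated on the array as ORC1L to ORC6L, marks the sites where helicases are loaded. ORC5 was at 9.88, 9.92 and 10.14 on the circANRIL arrays and at 9.13, 9.54 and 9.71 on the vector control arrays. All circANRIL arrays were higher, and vector control array 1 was the lowest of all. ORC5 rose by 0.52 on the log2 scale (standard error 0.17, adjusted p = 0.0398), and a dimmer probe gave 0.64 (adjusted p = 0.0349). It did not pass without vector control array 1 (0.35, adjusted p = 0.151), vector control array 2 (adjusted p = 0.0523) or circANRIL array 1 (adjusted p = 0.0627), 2 (adjusted p = 0.1) or 3 (adjusted p = 0.153). The call was also lost with median scaling (adjusted p = 0.222), a floored background (adjusted p = 0.143) or no filter (adjusted p = 0.0732). Nor did it hold with no intensity trend (adjusted p = 0.0699) or by the methods' t-test (adjusted p = 0.203), so ORC5 passed in 6 of the 16 alternatives. ORC1, the subunit whose level follows the cell cycle, was at 7.15, 6.86 and 7.13 against 7.50, 7.48 and 7.55, groups that did not overlap, with a log2 fold change of −0.46 (adjusted p = 0.0933). The values of ORC2, ORC3, ORC4 and ORC6 were 0.02, −0.33, −0.23 and 0.11. A dimmer ORC6 probe gave 0.40 (adjusted p = 0.119).

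Of the helicase loaders CDT1 and CDC6 and the CDT1 inhibitor GMNN, none passed. Their groups did not overlap, which also held for 39.3% of all genes. CDT1, the loader that is destroyed once S phase begins, was at 8.88, 9.02 and 9.45 on the circANRIL arrays and at 8.72, 8.63 and 8.49 on the vector control arrays. Its log2 fold change was 0.50 (standard error 0.17, adjusted p = 0.0573). With 1 array left out it ranged from 0.33 (adjusted p = 0.244, without circANRIL array 3) to 0.62 (adjusted p = 0.0458, without circANRIL array 1), and it passed in the latter case alone. GMNN, or geminin, the inhibitor that holds CDT1 back after origins have fired, was at 10.30, 10.08 and 10.23 against 9.65, 9.79 and 9.99. Its circANRIL arrays were all higher as well, by 0.39 (standard error 0.14, adjusted p = 0.0702). It passed without vector control array 3 (adjusted p = 0.0488), while its adjusted p was 0.183 without vector control array 1, 0.182 without circANRIL array 1 and 0.425 with median scaling (0.20). CDC6, the ATPase that acts with CDT1, was at 5.80, 5.58 and 5.82 against 6.02, 5.88 and 6.08, lower on every circANRIL array, with a log2 fold change of −0.26 (adjusted p = 0.373).

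MCM10, which links the moving helicase to the primase, rose. It was at 9.74, 10.01 and 10.19 on the circANRIL arrays and at 9.65, 9.50 and 9.39 on the vector control arrays. The groups did not overlap, and circANRIL array 1 lay close above vector control array 1. MCM10 rose by 0.46 on the log2 scale (standard error 0.15, adjusted p = 0.0482), and the change was 0.24 (adjusted p = 0.35) by a dimmer probe. It passed in 6 of the 16 alternatives run, and not without vector control array 2 (adjusted p = 0.0899) or 3 (adjusted p = 0.126) or circANRIL array 2 (adjusted p = 0.147) or 3 (adjusted p = 0.19). MCM8, a relative that works in recombination, had 2 tested probes of opposite sign, 0.41 (adjusted p = 0.0592) by the brighter and −0.45 (adjusted p = 0.102) by the dimmer. The brighter probe passed in 1 of the 16 alternatives, without circANRIL array 1 (0.59, adjusted p = 0.00873), and was at 0.32 (adjusted p = 0.235) and 0.31 (adjusted p = 0.23) without circANRIL arrays 2 and 3.

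None of the genes that fire loaded origins passed. CDC7, the kinase that phosphorylates the MCM ring, its activator DBF4, CDC45, and GINS1 to GINS4, which together complete the active helicase, had log2 fold changes between −0.28 for DBF4 and 0.29 for GINS2. CDC45 had 0.16 and CDC7 had 0.12. GINS2 was the gene of this group with the smallest adjusted p (0.14), and its circANRIL arrays, at 10.54, 10.51 and 10.44, lay above its vector control arrays, at 10.26, 10.07 and 10.28. GINS1 was detected on 1 circANRIL and 2 vector control arrays, so its value of −0.20 lies close to background.

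Behind the helicase, the clamp and its loader did not pass either. PCNA, the sliding clamp that ties polymerases to DNA and a common marker of proliferating cells, was at 11.34, 11.08 and 11.58 on the circANRIL arrays and at 11.33, 11.13 and 11.08 on the vector control arrays. The groups overlapped, and circANRIL array 3 was the highest of all. Its log2 fold change was 0.15 (95% interval −0.14 to 0.45, adjusted p = 0.487). RFC1 to RFC5, the subunits of the ATPase that opens the clamp, ranged from −0.37 for RFC3 to 0.08 for RFC2. RFC3 had the smallest adjusted p of these 5 (0.113), and its 3 probes gave −0.37, −0.14 and −0.65.

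Among the enzymes that make DNA, the 5 subunits of the replicative polymerases that are among the 53 genes had values below 0, and none passed. Of the small subunits, counted below with the accessory factors, POLD4 was at 0.019, POLE3 at −0.09 and POLE4 at −0.36, and none of these passed. POLE, the catalytic subunit of the leading-strand polymerase, was at 8.22, 7.99 and 7.75 on the circANRIL arrays and at 8.60, 8.23 and 8.60 on the vector control arrays. Its groups were only just separated, and it was lower by 0.49 on the log2 scale (−0.49, standard error 0.18, adjusted p = 0.078). POLD3 was at −0.50 (adjusted p = 0.0882), where its dimmer probe gave 0.09, POLE2 was at −0.34, POLD2 at −0.25 and POLD1, the catalytic subunit of the lagging-strand polymerase, at −0.0023. The dimmer POLD2 probe gave −0.61 (adjusted p = 0.0629). The primase and polymerase alpha subunits, which lay down the primers, ranged from −0.15 for PRIM2 to 0.33 for PRIM1, with POLA1 at 0.08 and POLA2 at −0.04. PRIM2 was detected on 1 circANRIL and 2 vector control arrays, so its value lies close to background. With median scaling POLE, POLE2, POLD3, RFC3, ORC1, ORC3, RPA2, MCM3, TK1 and UHRF1 passed as lower, beside MCM2, RPA1 and FEN1.

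FEN1, the nuclease that trims the flaps of Okazaki fragments, fell. It was at 10.37, 10.33 and 9.87 on the circANRIL arrays and at 10.71, 10.66 and 10.71 on the vector control arrays. All circANRIL arrays were lower, and circANRIL array 3 was the lowest by a wide margin. FEN1 fell by 0.50 on the log2 scale (standard error 0.15, adjusted p = 0.0285), and the dimmer probe, at 8.06, 8.41 and 7.19 against 8.79, 8.60 and 9.22, gave −0.98 (standard error 0.25, adjusted p = 0.0138). Without circANRIL array 3 the brighter probe had −0.34 (adjusted p = 0.14), and the call was also lost without circANRIL array 2 (adjusted p = 0.0527), vector control array 1 (adjusted p = 0.0601) or vector control array 3 (adjusted p = 0.0591). Nor did FEN1 pass with a floored background, no filter, no intensity trend or the methods' t-test, so it passed in 8 of the 16 alternatives. LIG1, the ligase that seals the fragments after FEN1, was at 8.61, 8.54 and 8.56 against 8.31, 8.31 and 8.37. Every circANRIL array was higher, by 0.24 (standard error 0.16, adjusted p = 0.308), and this value passed only with a floored background (adjusted p = 0.0449).

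The 4 enzymes of deoxynucleotide supply among the 53 genes had values below 0, and none passed, whereas the mitochondrial kinase TK2, of the further list, was at 0.22 and did not pass either. TK1, the salvage thymidine kinase that is made in S phase, was at 8.51, 8.53 and 8.12 against 8.69, 8.79 and 8.93, with a log2 fold change of −0.41 (adjusted p = 0.106). RRM1 and RRM2, the subunits of ribonucleotide reductase, had −0.16 and −0.24, and TYMS, which makes thymidylate, had −0.24. Of the genes that guard the fork and restore chromatin behind it, UHRF1, which reads hemimethylated DNA, was at 11.36, 11.22 and 11.20 against 11.46, 11.45 and 12.12. Its vector control array 3 stood well above the other arrays. The difference of −0.42 had an adjusted p = 0.0816. It was −0.20 (adjusted p = 0.364) without that array, and passed without vector control array 1 (−0.52, adjusted p = 0.0477) or 2 (−0.53, adjusted p = 0.0448). A dimmer UHRF1 probe gave −0.56 (adjusted p = 0.17). The checkpoint adaptor CLSPN had −0.35, the histone chaperone subunits CHAF1A and CHAF1B had −0.25 and −0.06, and TIPIN, of the fork protection complex, had 0.25.

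Several genes were read by more than 1 probe, which gave a check on single values. RPA3, MCM6 and MCM2 were read by 1 probe each and had no such check. Of 19 genes with 2 or 3 tested probes, 13 had the same sign on all of them. The RPA1, FEN1 and ORC5 probes all passed in 1 direction. In MCM3 and MCM10 1 probe passed and the other did not. The 6 genes whose probes had opposite signs were MCM4, MCM7, MCM8, POLD3, RFC2 and RFC4, and none of their probes passed. Whether such probes read different transcripts was not tested.

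**Figure D3:**
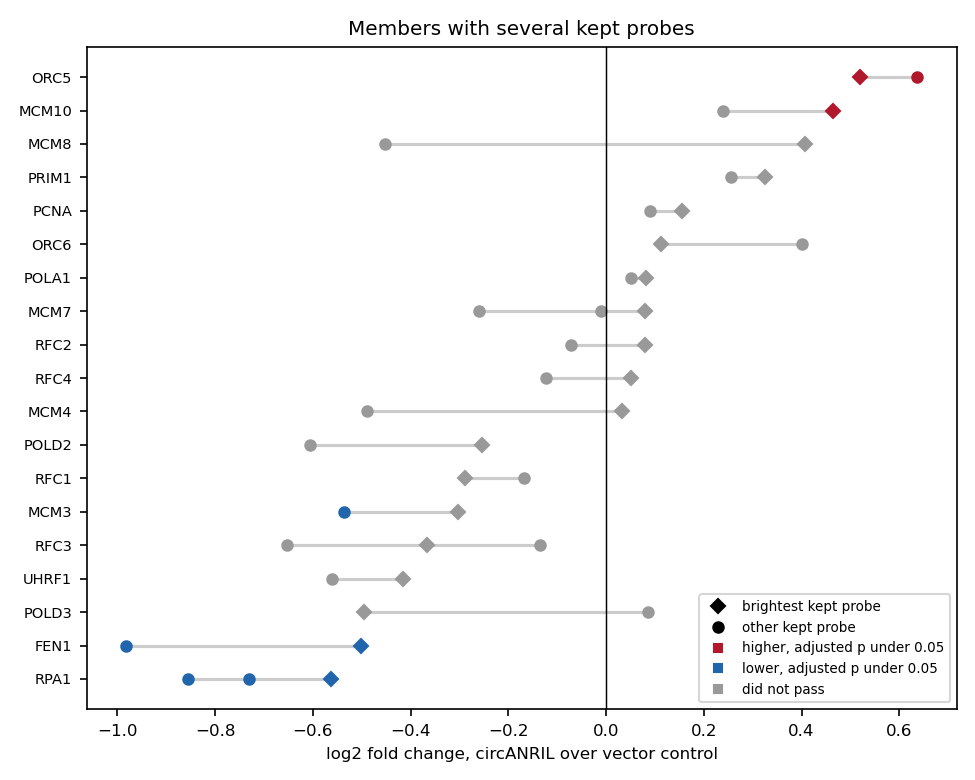
Log2 fold change (circANRIL over vector control) of each tested probe of the 19 genes with several, with diamonds for the brightest probe and circles for the others. All 3 RPA1 probes and both FEN1 probes lie in blue below 0 and both ORC5 probes in red above it, whereas the MCM4, MCM8 and POLD3 probes straddle 0.

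Genes around the core machinery were measured from 4 further lists, written from textbook knowledge with earlier results of these arrays known. Of 76 measured genes 3 rose and 15 fell (23.7%, beside 20.7% of all genes), with a median log2 fold change of −0.09. Among 25 measured S phase regulators 2 rose and 6 fell. The E2F partner TFDP1 fell by 0.70 (standard error 0.12, adjusted p = 0.00101), and CUL4A, the scaffold of the ligase that destroys CDT1 on PCNA, by 0.83 (standard error 0.17, adjusted p = 0.00309). Both genes lie near each other on chromosome 13, CUL4A at 113208193-113267108 and TFDP1 at 113584688-113641473. Whether they changed independently of each other was not tested. E2F5, a repressive E2F, rose by 1.11 on the log2 scale (adjusted p = 0.0058, standard error 0.25). The RB relative RBL2 was higher by 0.58 (adjusted p = 0.0212), a call lost without vector control array 3 (adjusted p = 0.0729) or circANRIL array 2 (adjusted p = 0.111) or 3 (adjusted p = 0.0533), and with median scaling. The cyclin-dependent kinase inhibitor CDKN1C, counted among the 6, was detected on all 3 vector control arrays and on no circANRIL array. With its circANRIL level set to the dimmest detected signal per array, it was at least 1.32-fold lower there. The fit, on values near background, gave −0.59 (adjusted p = 0.0212). CDKN1C met the detection filter through the vector control arrays alone, so this p-value is not read as support. It did not pass without vector control array 2 (adjusted p = 0.0773) or circANRIL array 3 (adjusted p = 0.104). Nor did it with a floored background (−0.19, adjusted p = 0.474) or with no filter (adjusted p = 0.0659). Values for E2F1 (0.04), CCNE1 (0.19) and CDKN1A (−0.21), which encodes p21, did not pass.

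Of all genes 20.7% passed, 11.4% higher and 9.26% lower, and 35.4% had an unadjusted p under 0.05, against which the counts of these short lists are to be read. Of 17 measured genes of the checkpoint and of chromatin behind the fork, 1 rose and 4 fell. RBBP7, a histone-binding protein, rose by 0.85 (standard error 0.13, adjusted p = 0.000206). The histone chaperones ASF1A and NASP fell by 0.89 (adjusted p = 0.00294) and 0.85 (adjusted p = 0.00514), and RAD9A, of the checkpoint clamp, by 0.70 (adjusted p = 0.0229). The RAD9A call was lost without vector control array 3 (adjusted p = 0.0716) or any 1 of circANRIL arrays 1, 2 and 3 (adjusted p = 0.0521, 0.0524 and 0.0986). Of 12 measured genes of nucleotide supply 3 fell and 0 rose, with 6 at an unadjusted p under 0.05 in limma in either direction. They were PPAT (−0.61), which starts purine synthesis, CTPS1 (−0.50), which makes CTP, and CMPK1 (−0.45). The CTPS1 call was lost without vector control array 1 (adjusted p = 0.0715) or circANRIL array 2 (adjusted p = 0.108) or 3 (adjusted p = 0.0544). CMPK1 passed in 7 of 16 alternatives and, with 1 array left out, only without vector control array 2, its adjusted p otherwise lying between 0.0552 and 0.135. Of 22 measured accessory replication factors 2 fell and 0 rose, again with 6 at an unadjusted p under 0.05. These were CHTF18, of an alternative clamp loader, at −0.75 (adjusted p = 0.00761) and RNASEH2C, a subunit of ribonuclease H, at −0.94 (adjusted p = 0.0249). RNASEH2C was at −0.57 (adjusted p = 0.13) without circANRIL array 3, and did not pass without circANRIL array 2 (adjusted p = 0.0558) or vector control array 1 (adjusted p = 0.0686) or 3 (adjusted p = 0.0618) either.

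**Figure D4:**
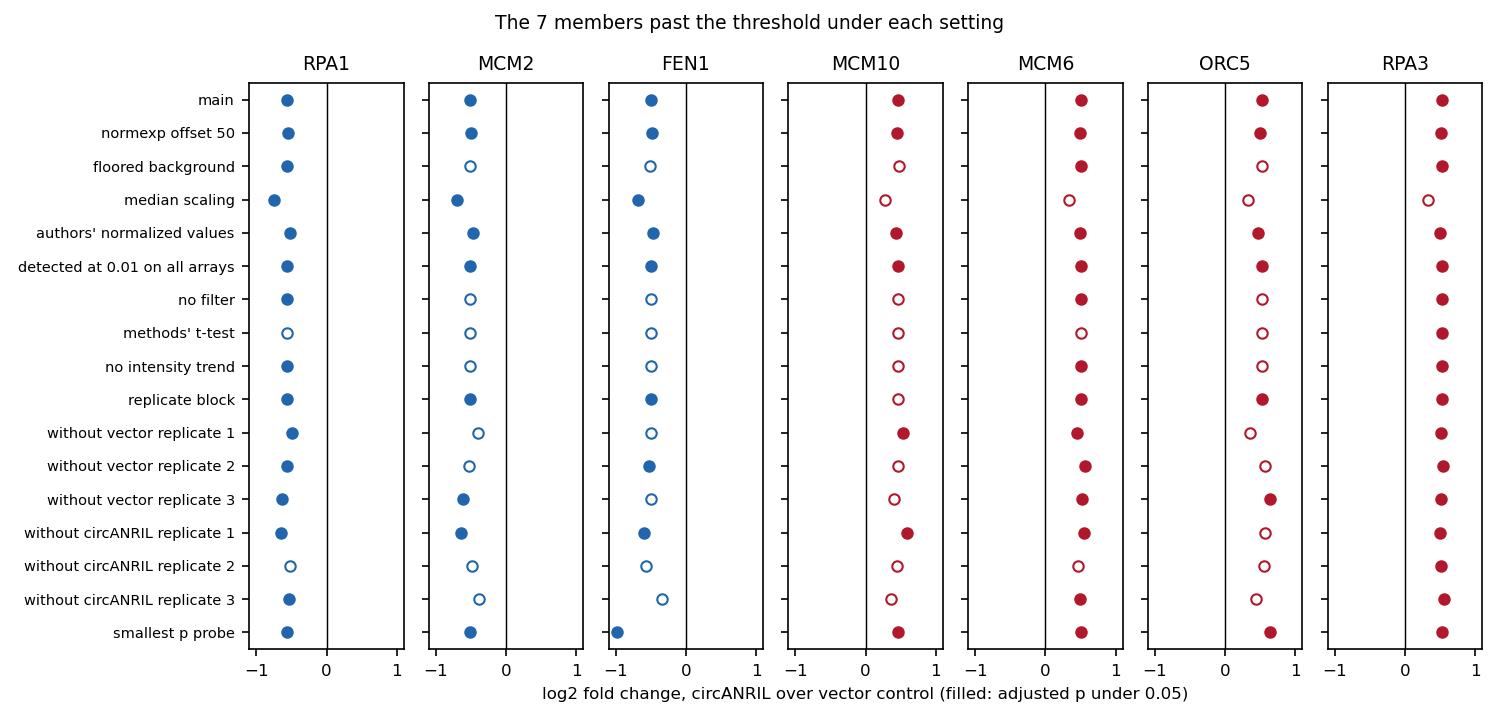
Log2 fold change (circANRIL over vector control) of the 7 replication genes that passed, under the main processing and each alternative (rows), filled where the adjusted p was under 0.05. RPA3, MCM6 and RPA1 are filled in most rows and MCM10, ORC5, MCM2 and FEN1 in fewer, and none of the 7 crosses 0.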

How the data were processed

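RNA of HEK-293 cells was hybridised to 6 Illumina HumanHT-12 v4 BeadChips, 3 per group by the sample titles. The authors preprocessed bead-level data in GenomeStudio (version 2011.1 in the submitters' processing notes), with background reduction and quantile normalization. The deposited intensity values used here were background-subtracted by the authors, with 11666 to 12397 negative values per array, and not normalized between arrays. The deposited detection p-values come from negative control beads. A second deposited table of normalized intensity values served as an alternative.

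The neqc function (offset 16) of limma 3.58.1 under R 4.3.3 applied normexp background correction, quantile normalization and a log2 transform. The 21191 probes detected (p under 0.05) by 3 or more arrays, of 47315, entered 1 two-sided fit by lmFit and eBayes with an intensity trend, and p-values were adjusted by Benjamini-Hochberg. The brightest tested probe stood for a gene. Symbols came from the platform annotation, updated by gene identifier for 30071 of 30110 probes. The number of arrays limits the precision. Members, lists and the rule for named genes (every member, up to 3 genes per further list and direction by adjusted p, and CDKN1A, E2F1, CCNE1 and CCNE2) were chosen with earlier results of these data known. Alternatives were other background corrections, scalings, filters, tests and probes, the authors' normalized values, a replicate block and each array left out, with the tested probes kept fixed.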

Additional observations from a re-analysis of the deposited data

How the results depend on the processing

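With the deposited normalized values, an offset of 50 and the stricter detection filter, 7 replication genes passed as in the main fit. The replicate numbers did not pair the arrays, since deviations of same-numbered arrays correlated at 0.00, 0.08 and −0.13 and 2 of 6 arrays correlated best with their own number. With the number as a replicate block 6 genes passed, MCM10 being lost, and of all probes called 3531 were. A floored background left 4 replication genes (3 higher, 1 lower), 4 further-list genes and 1527 of all 3753 probes called, and having no filter (with more probes adjusted over) or no intensity trend left 3 replication genes each (2 higher, 1 lower). By the methods' t-test 1 was higher and 0 lower, with 0 genes of the further lists and 484 probes (unadjusted, 16 replication genes, 25 further-list genes and 5388 probes). Median scaling gave 13 lower and 0 higher, 28 further-list genes, and 1418 probes higher and 2974 lower in place of 1965 and 1788. Every tested probe counted alone gave 12 passing probes, 5 higher and 7 lower. Leaving out 1 array gave 1 to 8 replication genes (1 to 5 higher, 0 to 4 lower), 8 to 17 further-list genes and 2138 to 3322 probes. The further lists gave 9 and 8 without circANRIL arrays 2 and 3 and 10 without vector control array 3, and all probes 2138 and 2192 without circANRIL arrays 2 and 3. The cause was not tested.

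Every change of sign was in a gene that did not pass. With median scaling these were CDC45 (−0.028), CDC7 (−0.063), MCM4 (−0.15), MCM7 (−0.092), ORC2 (−0.17), PCNA (−0.035), POLA1 (−0.11), RFC2 (−0.080), RFC4 (−0.12) and E2F1 (−0.014). By the probe with the smallest p they were MCM4 (−0.49), MCM7 (−0.26) and RFC4 (−0.12). With 1 array left out at a time the values ran from −0.16 to 0.20 for MCM4, −0.020 to 0.14 for MCM7, −0.11 to 0.23 for ORC2, −0.13 to 0.091 for POLA2, −0.065 to 0.15 for RFC2, −0.14 to 0.30 for E2F1, −0.18 to 0.30 for POLA1, −0.056 to 0.076 for POLD1, −0.33 to 0.092 for GINS4, −0.085 to 0.23 for CDC7 and −0.0053 to 0.089 for RFC4. Floored values of GINS1 and PRIM2 lay at the floor and have no order.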

Other observations

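ORC5, MCM8, PCNA and RFC5 each have a further probe that was detected on 0 of the 6 arrays, with levels between 4.17 and 4.45, so those probes entered no comparison. The cyclin E gene CCNE2 was detected on 1 vector control array and on no circANRIL array, and was not tested. Among the circANRIL arrays, array 1 was the highest of its group in 27 of the 53 replication genes and array 3 the lowest in 25. Averaged over the 53 genes, the log2 level was 9.24, 9.21 and 9.19 on circANRIL arrays 1, 2 and 3 and 9.24, 9.28 and 9.32 on the vector control arrays.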
